A study of Mus musculus with 3 samples.

Results

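The genes described here encode glycoproteins, laminins, proteoglycans and crosslinking enzymes of the extracellular matrix, 47 in all. They were chosen by name, with earlier results of these data known. On the array, 46 of them had a probe named for them, 48 probes in total. A value on all 3 arrays was present for 47 probes of 45 genes, out of 14688 genes measured in this way. Of these 45 genes, 38 were bright enough to be compared, out of 11359 genes on the whole array. The other 7 (Mfap2, Loxl2, Postn, Spon1, Dcn, Fmod and Lama2) were too dim, Mfap4 was blank except on the OP9-GFP array (2.1), and Lamb1 had no probe named for it.

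RNA came from 3 cultures of the mouse stromal line OP9, 1 array each: cells with green fluorescent protein and Delta-like 1, a ligand of Notch receptors (OP9-DL), cells that express GFP only (OP9-GFP), and OP9 cells labelled as the control. All go back to calvaria, the skull vault, of newborn B6C3Fe-a/a-Csf1op/Csf1op mice, so all share the Csf1op mutation, and all were grown in aMEM with 20% FBS and received no treatment. The sources used here do not say whether either GFP-carrying line is a single clone, or what drives the transgenes. With 1 array per line there is no replicate, no error and no test, and a difference between lines cannot be told apart from a difference between cultures or arrays.

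Elastic fibres consist of elastin laid onto a scaffold of fibrillin microfibrils, with fibulins helping in the assembly and lysyl oxidases crosslinking the product. Basement membranes are sheets of laminin and type IV collagen, held together by nidogens and the heparan sulfate proteoglycan perlecan. Matricellular proteins such as tenascin-C and the thrombospondins sit in the matrix and modulate how cells attach to it. Stromal cells such as OP9 secrete many of these proteins, and blood cells in co-culture come into contact with them.

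Values are the authors' scaled intensities, in which the median probe of each array has the value 20, and differences are on the log2 scale. Intensities of different probes are not comparable with each other, so differences are taken only within a gene, across arrays. The summed marker intensities given below therefore depend on how bright each probe is and are not amounts of RNA. Only differences that reached 2-fold were counted as higher or lower, and a gene was too dim where its mean over the arrays lay below 6.13, the 25th percentile of the probes measured on all 3 arrays. No member reached the highest value of its array, which 4 to 7 probes per array shared. Dll1, which encodes Delta-like 1, read 333.3 in OP9-DL, 20.5 in OP9-GFP and 14.0 in OP9. Of 12 stromal markers 8 were compared, and 4 of these (Col1a1, Col6a1, Pdgfra and Cxcl12) spanned 2-fold or more across the lines. Thy1, Cd44 and Eng were too dim, and Ly6a had no probe named for it. On the OP9-DL, OP9-GFP and OP9 arrays Thy1 read 3.0, 1.7 and 1.1, Cd44 5.0, 9.3 and 3.8, and Eng 4.8, 4.3 and 3.5. Vim, the fibroblast filament vimentin, read 32110.4, 25328.1 and 18420.0 on the OP9-DL, OP9-GFP and OP9 arrays, and Col1a2, a chain of type I collagen, 5145.3, 5922.4 and 6612.6. Its partner chain Col1a1 was lowest on the OP9 array, with 557.0, 712.9 and 269.3, and Pdgfra, a growth factor receptor of mesenchymal cells, was highest there, with 127.1, 166.1 and 800.6. Col6a1, a chain of type VI collagen, read 3242.8, 1684.2 and 5506.3, and Cxcl12, a chemokine of marrow stroma, 1997.4, 4411.3 and 3720.4. Ptprc, the leukocyte antigen CD45, read 2.8, 2.5 and 2.1 on the same arrays, and Cdh5, the endothelial cadherin, was blank on the OP9-DL and OP9-GFP arrays and read 2.1 on the OP9 array. Of 8 endothelial markers only Kdr was bright enough to be compared, with 19.7 in OP9-DL, 18.6 in OP9-GFP and 25.5 in OP9.

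A larger share of the matrix genes than of all genes differed between the 3 lines. Because the genes were chosen with earlier results of these data known, this larger share is a description and not independent support. In 18 of the 38 the highest array stood at least 2-fold over the lowest, 47.4%, where 18.1% of all genes compared did so. The median span between highest and lowest array was 0.94 on the log2 scale for the matrix genes and 0.53 for all genes. Another 9 spanned between 1.5-fold and 2-fold, and 11 stayed within 1.5-fold.

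**Figure D1:**
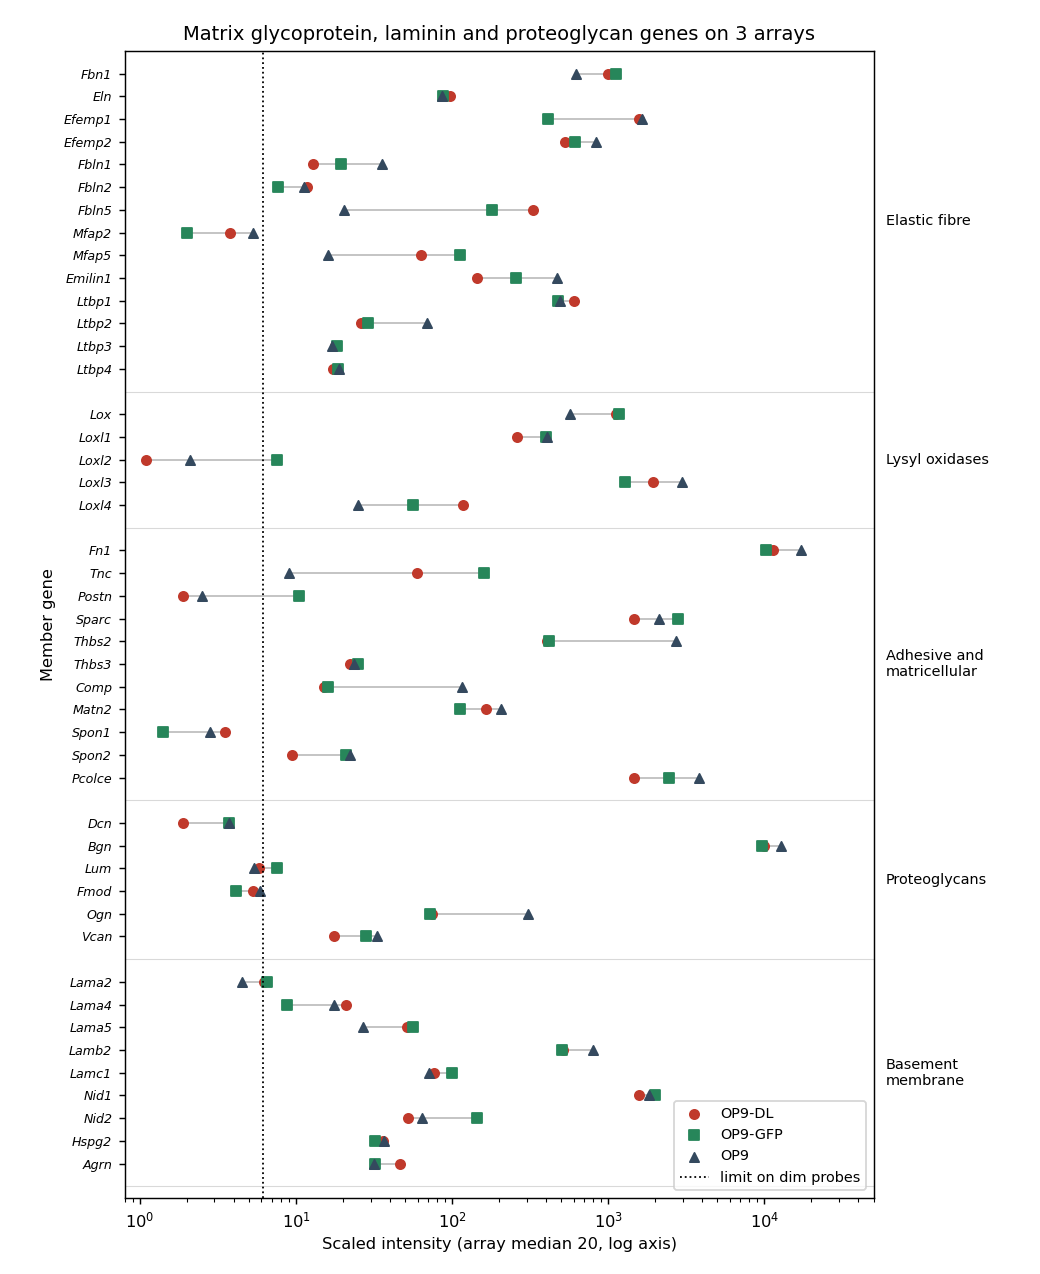
Scaled intensity (log axis) of the 45 matrix genes with a value on all 3 arrays, grouped by role, with 1 symbol for each line; the dotted line is the limit of 6.13 on dim probes and the grey bar spans the 3 arrays. Fbln5, Tnc, Mfap5, Thbs2, Comp and Ogn have the OP9 array far from the other two, while Eln, Ltbp3, Ltbp4, Hspg2 and Thbs3 have nearly coincident symbols.

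The first comparison asked what differs between cells with the ligand and cells with GFP alone. Of the 38 matrix genes, 3 were at least 2-fold higher in OP9-DL than in OP9-GFP (7.89%, against 2.25% of all genes compared), and 3 were at least 2-fold lower (7.89%, against 3.07%). Higher were Efemp1, Loxl4 and Lama4, and lower were Tnc, Nid2 and Spon2. The median difference of the matrix genes was -0.09, beside -0.03 over all genes, with 15 genes above 0 and 23 below. With a constant of 5 added to every intensity before log2, which damps differences of dim probes, Lama4 (0.91), Loxl4 (0.99) and Spon2 (-0.85) lay inside 2-fold.

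The second comparison set the GFP cells against the parental control. On the OP9-GFP array 7 matrix genes were at least 2-fold higher than on the OP9 array (18.4%, against 5.04% of all genes) and 6 were at least 2-fold lower (15.8%, against 6.81%). Those higher were Tnc, Fbln5, Mfap5, Nid2, Loxl4, Lama5 and Lox, and those lower were Comp, Thbs2, Ogn, Efemp1, Ltbp2 and Loxl3. Of these, Lama5 (0.93) and Loxl4 (0.97) lay inside 2-fold with the constant of 5, and Lox (0.99) under lowess scaling. The median was -0.06, beside 0.02 over all genes.

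The third comparison set the ligand-bearing cells against the parental control. On the OP9-DL array 4 matrix genes were at least 2-fold higher than on the OP9 array (10.5%, against 4.41% of all genes), namely Fbln5, Tnc, Loxl4 and Mfap5. Another 8 were at least 2-fold lower (21.1%, against 7.29%): Comp, Thbs2, Ogn, Emilin1, Fbln1, Ltbp2, Pcolce and Spon2. With the constant of 5 Spon2 (-0.92) lay inside 2-fold. The median was -0.16, beside 0.00 over all genes. These 3 comparisons share arrays, so their gene lists are not independent of each other.

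**Figure D2:**
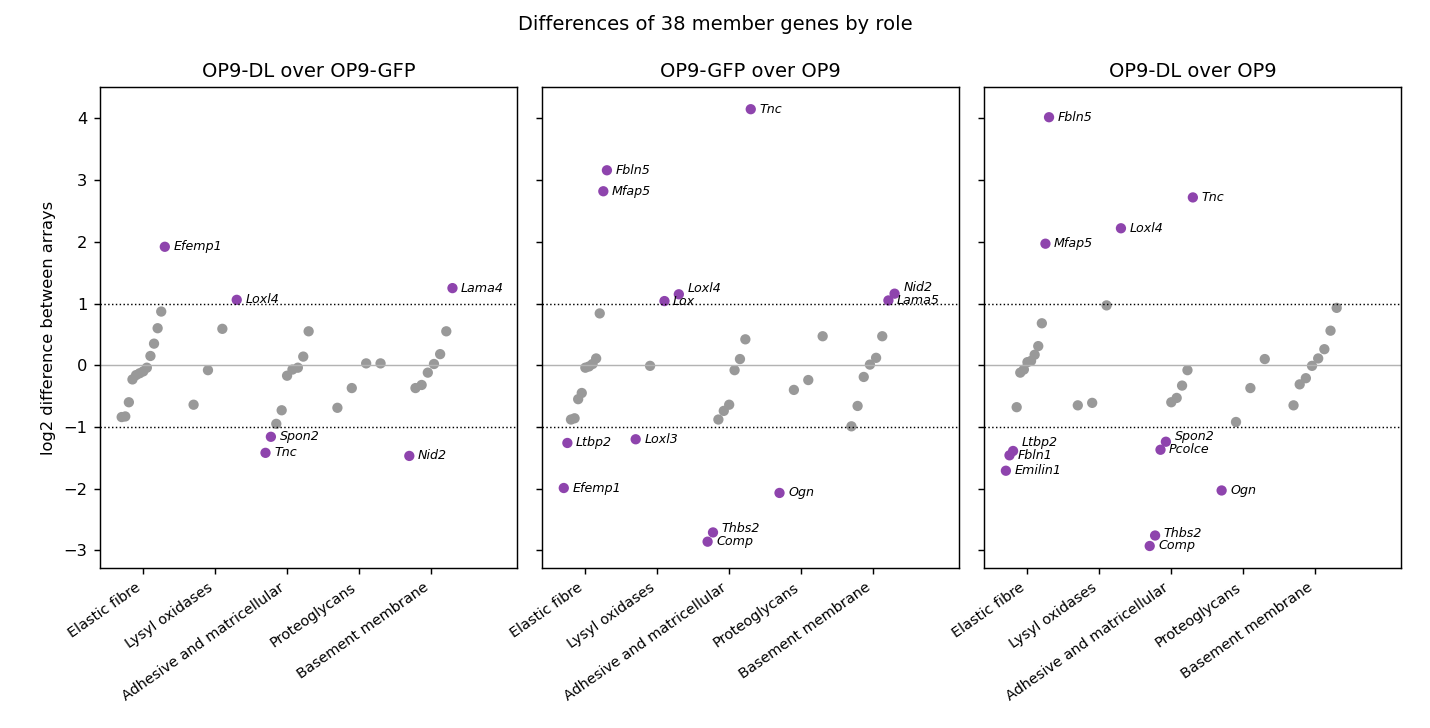
The log2 difference between arrays for the 38 matrix genes compared, by role, in each of the 3 comparisons; dotted lines mark 2-fold and named purple points lie past it. The points past 2-fold number 6 (15.8%, against 5.33% of all genes) for OP9-DL over OP9-GFP, 13 (34.2%, against 11.8%) for OP9-GFP over OP9 and 12 (31.6%, against 11.7%) for OP9-DL over OP9.

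**Figure D3:**
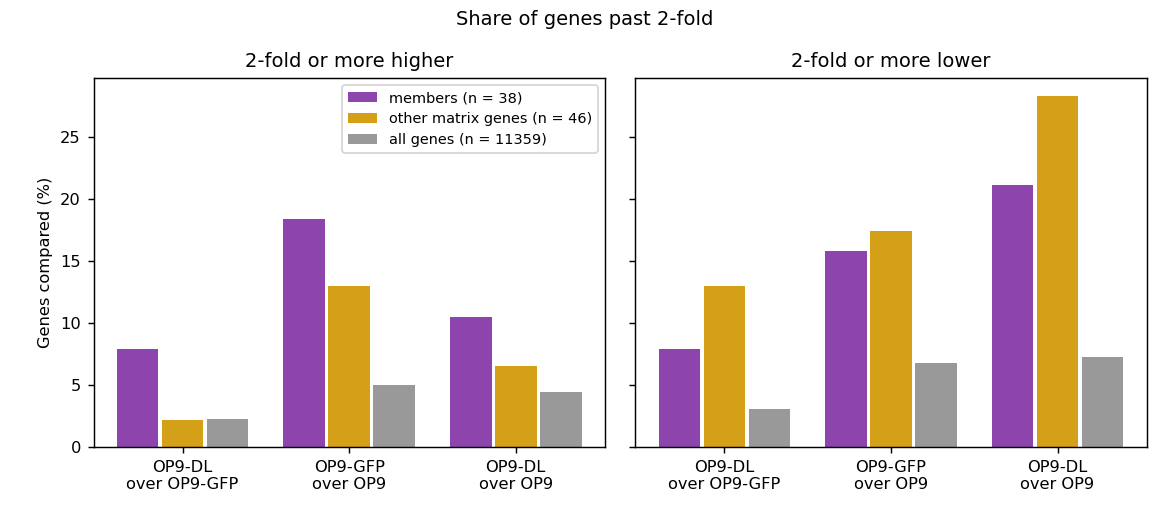
Percentage of genes at least 2-fold higher (left) or lower (right) in each comparison, for the 38 matrix genes, 46 other matrix genes and all 11359 genes compared. The share of the matrix genes is above that of all genes in all 6 pairs of bars, from 7.89% against 2.25% to 21.1% against 7.29%. Both matrix lists were chosen with earlier results of these data known.

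Where 1 line stood at least 2-fold apart from both others, that line was most often OP9, among the matrix genes and among all genes. On the OP9 array 4 genes lay at least 2-fold below both other lines (10.5%, against 2.31% of all genes) and 4 lay at least 2-fold above both (10.5%, against 4.01%). The OP9-GFP array lay above both others for Tnc and Nid2 (0.863% of all genes) and below both for Efemp1 (0.898% of all genes). The OP9-DL array lay above both others for Loxl4 (0.995% of all genes) and below both for Spon2 (1.72% of all genes). Tnc and Loxl4 are counted under 2 lines each, because their 3 values are all at least 2-fold apart.

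**Figure D4:**
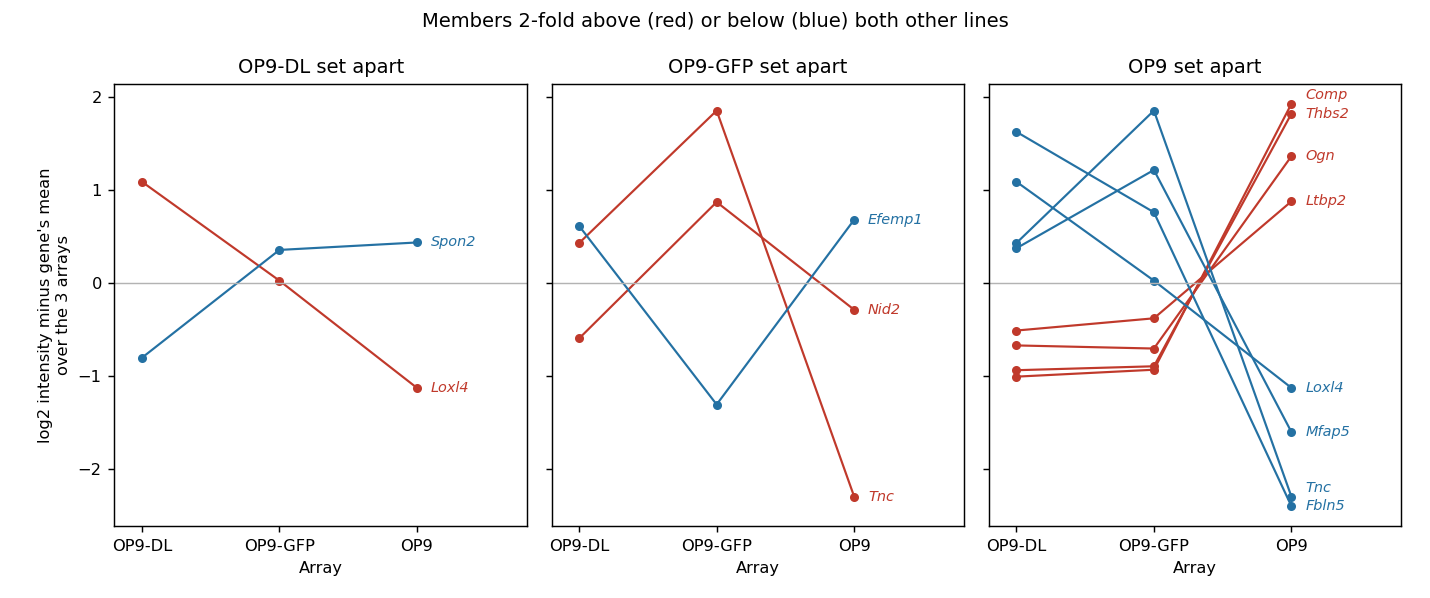
The log2 intensity of each gene minus its mean over the 3 arrays, for matrix genes in which 1 line lies at least 2-fold above (red) or below (blue) both others; points are single arrays, joined per gene. The OP9 panel holds 8 genes, the OP9-GFP panel 3 and the OP9-DL panel 2.

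Fbln5 had the steepest gradient among the elastic fibre genes. It encodes fibulin-5, which binds elastin and cell-surface integrins and is required for elastic fibres in mice. Its intensity was 328.6 in OP9-DL, 180.4 in OP9-GFP and 20.2 in OP9. The OP9-DL value was 16.3-fold and the OP9-GFP value 8.93-fold above OP9, the 13th and 18th highest differences of the 11359 genes. Between OP9-DL and OP9-GFP the difference was 1.82-fold.

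Mfap5, a glycoprotein bound to fibrillin microfibrils, also had its lowest value on the OP9 array. It read 62.9 in OP9-DL, 112.7 in OP9-GFP and 16.0 in OP9. That put OP9-DL 3.93-fold and OP9-GFP 7.04-fold above OP9, and the OP9-GFP difference was the 24th highest of all genes. Here the OP9-GFP array was the highest, where for Fbln5 it was OP9-DL. Its relative Mfap2 was too dim, with 3.8, 2.0 and 5.3 on the OP9-DL, OP9-GFP and OP9 arrays.

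Efemp1, which encodes fibulin-3, was low on the OP9-GFP array only. It read 1564.4 in OP9-DL, 413.6 in OP9-GFP and 1638.5 in OP9. OP9-DL was 3.78-fold above OP9-GFP, and OP9-GFP was 3.96-fold below OP9, while OP9-DL and OP9 lay within 1.05-fold. Efemp2, fibulin-4, which is needed for elastin crosslinking, read 525.0, 613.9 and 839.2 on the OP9-DL, OP9-GFP and OP9 arrays and stayed within 2-fold.

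Fbln1 and Emilin1 descended in the same order of lines, with OP9-DL lowest and OP9 highest. Fbln1, another fibulin of elastic fibres and basement membranes, read 12.8 in OP9-DL, 19.4 in OP9-GFP and 35.3 in OP9. Emilin1, a glycoprotein at the border of elastin and microfibrils that restrains TGF-beta maturation, read 143.4, 255.3 and 470.6. Only the outer pair passed 2-fold in each, by 2.76-fold for Fbln1 and 3.28-fold for Emilin1. Fbln2 read 11.7, 7.7 and 11.3 on the OP9-DL, OP9-GFP and OP9 arrays and differed by 1.52-fold or less.

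Neither core component of the fibre, elastin or fibrillin-1, reached 2-fold in any comparison. Elastin itself, Eln, read 97.5 in OP9-DL, 87.6 in OP9-GFP and 86.5 in OP9, all within 1.13-fold. Fbn1, the microfibril protein fibrillin-1, read 999.7, 1118.4 and 622.7, so that OP9-GFP was 1.80-fold and OP9-DL 1.61-fold above OP9.

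Of the latent TGF-beta binding proteins, Ltbp2 was the 1 that differed by 2-fold. It is the family member that does not bind latent TGF-beta, and both of its probes had the OP9 array highest. One read 31.1, 39.1 and 75.5 on the OP9-DL, OP9-GFP and OP9 arrays, and the other 22.1, 21.0 and 62.3. Averaged over both probes, OP9-DL was 2.62-fold and OP9-GFP 2.39-fold below OP9, but the first probe alone gave 1.93-fold for OP9-GFP. Ltbp1, which anchors latent TGF-beta in the matrix, read 605.0, 475.2 and 489.3 on the OP9-DL, OP9-GFP and OP9 arrays, and Ltbp3 read 17.8, 18.3 and 16.9. Ltbp4 read 17.3, 18.6 and 18.8, and all 3 stayed within 1.27-fold.

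The lysyl oxidases, which crosslink collagen and elastin, differed one by one and not as a group. Loxl4, a member of this family, had OP9-DL highest and OP9 lowest by both of its probes. The first read 52.7 in OP9-DL, 26.9 in OP9-GFP and 10.8 in OP9, and the second 257.9, 115.9 and 58.3. Their mean put OP9-DL 2.09-fold above OP9-GFP and 4.65-fold above OP9, and OP9-GFP 2.23-fold above OP9. Single probes gave 1.96-fold and 2.23-fold for the first of these differences, and 2.49-fold and 1.99-fold for the last, so these calls lie at the threshold.

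Lox and Loxl3 differed in opposite directions between the GFP cells and the parental cells. Lox, the founding enzyme of the family, read 1113.8 in OP9-DL, 1175.6 in OP9-GFP and 569.8 in OP9, and OP9-GFP was 2.06-fold above OP9. Loxl3 read 1929.9, 1281.1 and 2943.3 on these arrays, and OP9-GFP was 2.30-fold below OP9. Loxl1, which is needed to maintain elastic fibres in mice, read 258.4, 401.5 and 405.3 and stayed within 1.57-fold. Loxl2 had 1.1, 7.5 and 2.1 and was too dim to be compared.

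On the intensities as deposited, Tnc had the largest single difference among the matrix genes compared. It encodes tenascin-C, a large glycoprotein that is scarce in most adult tissue and appears in wounds and at sites of tissue remodelling. Its intensity was 59.5 in OP9-DL, 159.6 in OP9-GFP and 9.0 in OP9. OP9-GFP was 17.7-fold above OP9, the 9th highest difference of all genes, OP9-DL was 6.61-fold above OP9, and OP9-DL was 2.68-fold below OP9-GFP. The OP9 reading is low, and with the constant of 5 the log2 difference of OP9-GFP from OP9 was 3.56 in place of 4.15, below the 3.73 of Fbln5 between OP9-DL and OP9 in that setting.

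Thbs2 and Comp, both of the thrombospondin family, were high on the OP9 array and nearly equal on the other two. Thbs2, thrombospondin-2, which inhibits vessel growth, read 402.0 in OP9-DL, 414.0 in OP9-GFP and 2718.0 in OP9. OP9-DL was 6.76-fold and OP9-GFP 6.57-fold below OP9. Comp, the cartilage oligomeric matrix protein, read 15.1, 15.9 and 115.3, which put OP9-DL 7.64-fold and OP9-GFP 7.25-fold below OP9. OP9-DL and OP9-GFP lay within 1.05-fold of each other for both genes. Thbs3, of the same family, read 22.3, 25.1 and 23.5 on the OP9-DL, OP9-GFP and OP9 arrays.

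None of the 5 cartilage and bone markers compared stood at least 2-fold above both other lines on the OP9 array, as Comp did. Ogn and Spp1 (osteopontin), which are not on this marker list, did so too. Spp1 read 6877.5 in OP9-DL, 5610.9 in OP9-GFP and 26149.4 in OP9. Sox9, the transcription factor of cartilage cells, read 32.4, 21.6 and 35.5 on the OP9-DL, OP9-GFP and OP9 arrays, and Col2a1, cartilage collagen, 3509.9, 1720.8 and 1819.3. Runx2 read 15.0, 15.4 and 13.7 on these arrays, and Sp7 7.5, 9.7 and 8.7. Acan, the cartilage proteoglycan aggrecan, read 2.5, 1.1 and 1.8 and was too dim to be compared. Alpl, the alkaline phosphatase of bone-forming cells, was low in OP9-DL, with 15.1 against 101.3 in OP9-GFP and 91.6 in OP9. The summed intensity of 7 cartilage and bone markers with a probe was 3582.4 in OP9-DL, 1869.9 in OP9-GFP and 1973.0 in OP9, and most of each sum was Col2a1.

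Spon2 and Pcolce had their lowest values on the OP9-DL array. Spon2, the secreted protein spondin-2 (mindin), read 9.4 in OP9-DL, 21.0 in OP9-GFP and 22.2 in OP9, and OP9-DL was below OP9-GFP by 2.23-fold and below OP9 by 2.36-fold. Pcolce, which enhances the trimming of procollagens, read 1463.1, 2432.4 and 3781.0, and OP9-DL was below OP9-GFP by 1.66-fold and below OP9 by 2.58-fold. Sparc, a collagen-binding matricellular protein, also read lowest there, with 1453.1 against 2808.2 and 2099.0, and its difference from OP9-GFP was 1.93-fold, just inside the threshold.

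Fibronectin and matrilin-2 stayed within 2-fold. Fn1, the main adhesive glycoprotein of stromal matrix, read 11281.8 in OP9-DL, 10240.7 in OP9-GFP and 17144.1 in OP9, a span of 1.67-fold. Matn2, the matrix adaptor matrilin-2, read 164.1, 112.0 and 206.2, a span of 1.84-fold. Postn, periostin, had 1.9, 10.4 and 2.5, and Spon1, spondin-1, had 3.5, 1.4 and 2.8. Both of these had means below the limit, so no fold is given for them.

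Among the proteoglycans Ogn alone passed 2-fold. It encodes osteoglycin, a small leucine-rich proteoglycan first found in bone, and read 74.2 in OP9-DL, 72.5 in OP9-GFP and 303.8 in OP9. OP9-DL was 4.09-fold and OP9-GFP 4.19-fold below OP9, and both GFP-carrying lines lay within 1.02-fold of each other. Bgn, biglycan, a relative of Ogn that binds collagen and TGF-beta, read 9907.7, 9682.0 and 12772.3 and stayed within 1.32-fold. Vcan, the large hyaluronan-binding proteoglycan versican, was lowest in OP9-DL, with 17.5 against 28.2 in OP9-GFP and 33.2 in OP9, a span of 1.90-fold.

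The other small leucine-rich proteoglycans were near or below the limit. Lum, lumican, read 5.8, 7.5 and 5.4 on the OP9-DL, OP9-GFP and OP9 arrays. Of the 38 matrix genes compared it was the 1 with any reading below 6.13, on the OP9-DL and OP9 arrays. Dcn, decorin, read 1.9, 3.7 and 3.7, and Fmod, fibromodulin, 5.3, 4.1 and 5.9, both too dim to be compared.

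Of the 5 role groups, genes of the basement membrane had the smallest median distance between OP9-DL and OP9, 0.28 on the log2 scale, beside 0.36 over all genes. It was 0.34 between OP9-DL and OP9-GFP (all genes 0.26) and 0.57 between OP9-GFP and OP9 (all genes 0.36). In both of these the proteoglycans had a smaller one, 0.20 and 0.44. Of the 8 genes compared, 0 differed by 2-fold between OP9-DL and OP9 (11.7% of all genes did), 2 between OP9-DL and OP9-GFP (against 5.33% of all genes) and 2 between OP9-GFP and OP9 (against 11.8%). Nid2, the laminin-binding nidogen-2, was high on the OP9-GFP array: it read 52.1 in OP9-DL, 143.9 in OP9-GFP and 64.5 in OP9. OP9-DL was 2.76-fold below OP9-GFP, and OP9-GFP was 2.23-fold above OP9. Its paralogue Nid1 read 1579.3, 1976.8 and 1823.9 on the same arrays and stayed within 1.25-fold.

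Laminin chains differed one from another. Lama4, the alpha-4 chain of vessel and stromal laminins, was low on the OP9-GFP array, with 20.9 in OP9-DL, 8.8 in OP9-GFP and 17.5 in OP9. OP9-DL was 2.37-fold above OP9-GFP, and OP9-GFP was 1.99-fold below OP9, just inside the threshold. Lama5, the alpha-5 chain, was instead low on the OP9 array, with 51.5, 55.9 and 27.0, and OP9-GFP was 2.07-fold and OP9-DL 1.91-fold above OP9.

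The beta and gamma chains moved less. Lamb2 read 508.7 in OP9-DL, 503.4 in OP9-GFP and 796.5 in OP9, a span of 1.58-fold. Lamc1, the gamma-1 chain that most laminins share, read 76.9, 99.1 and 71.3, a span of 1.39-fold. Lama2, the muscle laminin chain, read 6.2, 6.5 and 4.5 and was too dim. The heparan sulfate proteoglycans of the basement membrane also stayed within 1.5-fold, with 36.2, 31.9 and 36.4 for Hspg2, perlecan, and 46.6, 31.9 and 31.7 for Agrn, agrin.

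Of the 8 genes that set the OP9 array apart, 6 had a promoter in the RefSeq table (GRCm38.p6), which held one for 30 of the 47 matrix genes. The sequences of Fbln5 and Tnc, low on the OP9 array, and of Thbs2 and Ogn, high on it, are shown as the pair on each side with the widest differences among these 6, with Efemp1 as the gene low on the OP9-GFP array. Each covers the 250 bases before the start site farthest upstream, 5′ to 3′ on the gene's strand. Capitals mark matches, on either strand, to TATAAA (the TATA motif), TGANTCA (AP-1), GGAATG (TEAD), TGGGAA (RBPJ, the DNA-binding partner of Notch) and CAGACA (SMAD).
Fbln5, chr12:101819120-101819369, minus strand: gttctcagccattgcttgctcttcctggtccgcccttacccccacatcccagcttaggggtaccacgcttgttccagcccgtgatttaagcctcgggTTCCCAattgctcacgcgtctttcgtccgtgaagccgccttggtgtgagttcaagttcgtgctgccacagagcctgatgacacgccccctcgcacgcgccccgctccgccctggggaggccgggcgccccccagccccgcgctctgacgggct
Tnc, chr4:64047016-64047265, minus strand: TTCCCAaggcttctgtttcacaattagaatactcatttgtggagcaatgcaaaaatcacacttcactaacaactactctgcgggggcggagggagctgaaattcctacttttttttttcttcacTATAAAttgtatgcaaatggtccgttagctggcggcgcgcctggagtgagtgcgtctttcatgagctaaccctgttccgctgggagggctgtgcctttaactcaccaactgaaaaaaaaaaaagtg
Thbs2, chr17:14694263-14694512, minus strand: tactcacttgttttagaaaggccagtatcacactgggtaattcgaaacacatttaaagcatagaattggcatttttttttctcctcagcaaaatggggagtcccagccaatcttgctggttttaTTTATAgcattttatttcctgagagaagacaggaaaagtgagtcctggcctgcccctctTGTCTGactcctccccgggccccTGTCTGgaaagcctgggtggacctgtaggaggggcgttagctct
Ogn, chr13:49607765-49608014, plus strand: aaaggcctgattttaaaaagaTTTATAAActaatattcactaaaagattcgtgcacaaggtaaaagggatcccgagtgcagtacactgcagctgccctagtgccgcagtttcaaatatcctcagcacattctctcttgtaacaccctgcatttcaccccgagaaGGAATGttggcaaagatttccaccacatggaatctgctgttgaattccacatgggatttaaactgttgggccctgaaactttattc
Efemp1, chr11:28852955-28853204, plus strand: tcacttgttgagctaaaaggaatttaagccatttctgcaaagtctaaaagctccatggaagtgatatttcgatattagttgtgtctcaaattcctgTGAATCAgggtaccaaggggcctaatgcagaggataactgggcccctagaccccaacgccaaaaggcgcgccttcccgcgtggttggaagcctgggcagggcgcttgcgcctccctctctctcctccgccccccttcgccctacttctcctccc

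Each of these matches was looked up after the intensities were known. Among the 6 promoters of genes that set the OP9 array apart, those of Fbln5, Tnc and Loxl4 held a TGGGAA match. These 6 genes were picked by the same intensities, and Mfap5 and Comp had no promoter to search. Whether the match goes with the side on which the OP9 array lay was therefore not tested. Such a match was found in 13 of the 30 matrix promoters (43.3%) and in 21.5% of 27025 promoters. Thbs2 held 2 CAGACA matches, and this motif occurred in 6 of the 30 (20.0%) and in 17.1% of all promoters. Ogn held a GGAATG match, found in 3 of the 30 (10.0%) and in 12.6% of all. Efemp1 held a TGANTCA match, found in 1 of the 30 (3.33%) and in 6.85% of all. TATAAA stood in Tnc, Thbs2 and Ogn, in 3 of the 30 (10.0%) and in 13.0% of all, and the match nearest to a start site began at position -126. The letters of TGGGAA and GGAATG can overlap, and each was counted on its own. A match describes the letters of this window and is not evidence of binding.

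Levels of markers of other cell types were summed, with blank cells counted as 0. Of 9 blood cell markers with a probe, the sum was 857.7 in OP9-DL, 1088.1 in OP9-GFP and 12390.1 in OP9, and Ly6c1 alone made 751.2, 974.9 and 12267.6 of these. The higher sum on the OP9 array thus lay almost wholly in Ly6c1. Of the other markers compared, Cd14 (23.0, 34.0 and 55.6) and Csf1r (20.6, 19.9 and 24.8) were also highest there. Cd68 (46.3, 42.9 and 29.4) and Cd79a (6.9, 7.5 and 4.9) were lowest there. The part of these markers in the genes that set the OP9 array apart was not tested. The sum of 8 mast cell markers was 856.0, 42.0 and 60.5 on the OP9-DL, OP9-GFP and OP9 arrays, of which Tpsab1, a tryptase, made 818.9, 9.0 and 20.6. Kit, a receptor found on mast cells, was blank on the OP9-DL and OP9-GFP arrays and read 1.6 on the OP9 array. The other mast cell markers compared were Mcpt4, with 19.8 in OP9-DL, 17.8 in OP9-GFP and 19.1 in OP9, and Cpa3, with 6.7, 8.1 and 4.9. Sums of endothelial markers were 39.5, 32.6 and 43.3, and those of epithelial markers 48.4, 53.0 and 44.2.

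A list of 82 other matrix genes, none of them among the 47, gives the surroundings, and 46 of these were compared. In OP9-DL 1 was at least 2-fold higher than in OP9-GFP (2.17%, against 2.25% of all genes) and 6 were lower (13.0%, against 3.07%). In OP9-GFP 6 were higher than in OP9 (13.0%, against 5.04%) and 8 lower (17.4%, against 6.81%). In OP9-DL 3 were higher than in OP9 (6.52%, against 4.41%) and 13 lower (28.3%, against 7.29%). Either way, their shares were 15.2%, 30.4% and 34.8%, beside 15.8%, 34.2% and 31.6% for the 38 matrix genes. A larger share than over all genes was thus not particular to those 38. The medians of the other matrix genes were -0.14, 0.04 and -0.29 in these comparisons. Between OP9-DL and OP9, both sets of matrix genes thus had more members past 2-fold on the low side than on the high side, as did all genes.

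In OP9-DL against OP9-GFP, the lowest of these other genes were Cspg4, Cthrc1 and Tgfbi. Cspg4, the pericyte proteoglycan NG2, read 9.1 in OP9-DL, 90.0 in OP9-GFP and 25.1 in OP9. Cthrc1, a secreted glycoprotein of injured vessels, read 3.4, 31.0 and 5.9, the outer pair below the limit of 6.13, and Tgfbi, a TGF-beta induced adhesive protein, 8.2, 47.2 and 144.4. The highest were Lamb3, the beta-3 laminin chain of epithelia, with 30.7, 11.8 and 4.9, and, within 2-fold, Hapln3 with 9.4, 5.8 and 8.1 and Tll1 with 36.4, 27.6 and 7.5.

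Against the OP9 array, Ecm1 and Spp1 were the lowest of the other matrix genes on the OP9-GFP array. Ecm1, a secreted glycoprotein of skin and other tissues, read 399.1 in OP9-DL, 451.1 in OP9-GFP and 2253.5 in OP9, and Spp1, osteopontin, 6877.5, 5610.9 and 26149.4. Both thus had the pattern of Thbs2, Comp and Ogn. Sdc1, the cell-surface proteoglycan syndecan-1, came next with 110.0, 106.3 and 352.6, and Cthrc1, Tll1 and Cspg4 were the highest. On the OP9-DL array Tgfbi, Ecm1 and Emilin2 were the lowest against OP9, by 17.6-fold, 5.65-fold and 5.28-fold, with 113.0, 209.4 and 596.8 for Emilin2. Highest there were Lamb3, for which no fold is given because its OP9 reading of 4.9 lay below the limit of 6.13, Tll1, by 4.85-fold, and Has2, by 2.76-fold. Tll1 encodes a procollagen-trimming protease of the family that Pcolce assists.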

How the data were processed

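Per the labels' protocols, Cy5 was coupled to amplified amino allyl RNA made from total RNA, by the protocol of the array maker Toray, with 1 colour per array. The authors deposited each probe's intensity on a linear scale, scaled by the authors so that every array has a median of 20, which the values show. The sources used here give no scanner, no background correction and no reason for blank cells (6.32% to 6.62% of 23473 probes).

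Intensities were used as deposited, and log2 was taken with no constant. Of 20775 probes with a value on all 3 arrays, the 15581 with a mean log2 value of 2.62 or more were kept. Of the 23473 probes 16631 had 1 gene symbol in the platform's table and 6842 did not. Of these symbols 12622 were current in the GRCm38.p6 gene annotation, 3947 were renamed and 62 were kept. Probes of 1 gene were averaged on the log2 scale. The members and gene lists were chosen with earlier results of these data known. All members are named, with Dll1 and the 3 highest and 3 lowest other matrix genes per comparison, and with marker genes chosen after their values were seen. The alternatives were other scalings, brightness limits, thresholds, blank and probe rules and a constant of 5. The counting was tested on simulated data. Scripts ran under Python 3.11.15 with pandas 2.3.3, numpy 2.4.6, statsmodels 0.14.6 and matplotlib 3.10.9.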

Additional observations from a re-analysis of the deposited data

Results flagged for a closer look

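Some matrix genes that were too dim to be compared stood above the limit of 6.13 on an array of a GFP-carrying line and below it on the OP9 array. Postn, periostin, read 10.4 on the OP9-GFP array, against 1.9 on the OP9-DL array and 2.5 on the OP9 array. Loxl2, a lysyl oxidase of basement membrane collagen, read 7.5 on the OP9-GFP array, against 1.1 on the OP9-DL array and 2.1 on the OP9 array. Lama2 read 6.2 on the OP9-DL array and 6.5 on the OP9-GFP array, against 4.5 on the OP9 array. These readings lie close to the limit, each rests on 1 probe, and the differences were not tested.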

How the results depend on the processing

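No paired analysis was possible because each line has 1 array. The 31 single-gene differences past 2-fold were recomputed 213 times under 7 alternatives. Of these recomputed values, 204 stayed past 2-fold in the same direction, 9 fell inside it and 0 changed sign. Those 9 concern Lama4, Lama5, Loxl4, Lox, Ltbp2 and Spon2. Other brightness limits and the blank rule could not change a difference that rested on 1 probe and was still compared. Loxl4 and Ltbp2, with 2 probes each, kept their values under these settings. Keeping only the brightest probe could change only Loxl4 and Ltbp2. Many of the 204 therefore repeat the main value by construction and do not show stability. Under the higher brightness limit Fbln1, Lama4 and Spon2 were no longer compared and are not counted. With a constant of 5 before log2, the genes at least 2-fold higher on OP9-DL than on OP9-GFP numbered 1 in place of 3. With no limit on dim probes, those lower numbered 5 in place of 3, the added pair being Loxl2 and Postn. At a 1.5-fold threshold the counts for OP9-DL over OP9-GFP were 6 higher and 10 lower, for OP9-GFP over OP9 13 lower, and for OP9-DL over OP9 7 higher and 14 lower. At a 3-fold threshold they were 1 higher and 0 lower for OP9-DL over OP9-GFP, 3 higher for OP9-GFP over OP9, and 4 lower for OP9-DL over OP9. The share of all genes was not computed for single comparisons under these alternatives. These counts therefore cannot be set against a background. The matrix genes whose highest array stood past the threshold over the lowest, recomputed under alternatives chosen after seeing the data, numbered 9 at 3-fold, 23.7% against 6.44% of all genes, and 15 with the constant of 5, 40.5% against 14.3%. At a 1.5-fold threshold they numbered 27, 71.1% against 44.9% of all genes. All other counts stayed within 1.5 times those reported, and the medians stayed below 0 under all alternatives run. Low signal limits Fbln2, Lum, Spon2, Lama4 and Tnc, whose lowest reading was under 10.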
